A study of Mus musculus with 6 samples.

Results

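Neutrophils and inflammatory monocytes are short-lived white cells that leave the blood when a tissue is injured or infected. The genes described here are 9 that such cells use. S100a8 and S100a9 encode the alarmin pair that fills the neutrophil cytoplasm, Csf3r, Cxcr2 and Ccr2 encode receptors for the signals that make and attract these cells, Trem1 and Clec4e encode receptors that sense damage and microbes, Ly6c1 encodes a surface antigen of the Ly6C family, and Bcl2a1d encodes a survival protein of the Bcl2 family. All array probes that were not controls and carried one of these 9 names were taken, which gave 9 of 31809 gene names on the array and 10 of 39429 probes, 2 of them for Ly6c1. In bulk mucosa, more cells of a type and more RNA per cell cannot be told apart.

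The tissue was mucosa of the glandular stomach, peeled from the muscle, of A4gnt-null and wild-type C57BL/6J mice of 5, 10 and 50 weeks, with 1 mouse and 1 one-colour array per genotype and age. A4gnt encodes the glycosyltransferase that puts terminal α1,4-linked N-acetylglucosamine on gland mucin, and neither the extent of the deletion nor the sex of the mice is given in the labels. All 3 A4gnt-null arrays lay on 1 slide and all 3 wild-type arrays on the other, so genotype and slide cannot be told apart in any comparison between the genotypes. Values are scaled signals, in which the 75th percentile of each array is set to 100, and the lowest signal called well above background was then 2.74 to 4.75. Between 54.8% and 59.18% of spots were well above background on an array, and the 75th percentile lay between 234.7 and 368.8 units before scaling. The A4gnt probe gave 0.979, 0.984 and 0.573 in A4gnt-null mice of 5, 10 and 50 weeks, never well above background, against 68.2, 97.1 and 98 in wild-type mice. Genes of parietal, chief and mucous cells were bright on all arrays (Atp4b between 20600 and 65900, Tff2 between 39900 and 131000), as the labelled tissue would have.

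Of the 10 probes, 7 were well above background on all 6 arrays and were tested, and these cover 6 of the 9 genes. Clec4e was well above background on 2 arrays, and Cxcr2 and Ccr2 on 0. The tested probes split into a group that was brighter in A4gnt-null mucosa at every age (S100a8, S100a9 and Bcl2a1d) and a group whose sign changed with age (Csf3r, Trem1 and both Ly6c1 probes). With limma and age as a factor, 0 of the 7 probes passed an adjusted p of 0.05, and neither did any of the 22136 probes tested (0% called, smallest adjusted p = 0.0938). At an unadjusted p under 0.05, 3 of the 7 were higher and 0 lower in A4gnt-null mucosa, where 12.4% of all tested probes were higher and 11.1% lower. The median difference of the 7 was -0.02 on the log2 scale, against 0.01 over all tested probes. That median is the value of the Trem1 probe, which shares bases with probes of other genes, as does the Csf3r probe. Since both Ly6c1 probes count as well, the median does not describe the genes as a group.

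**Figure D1:**
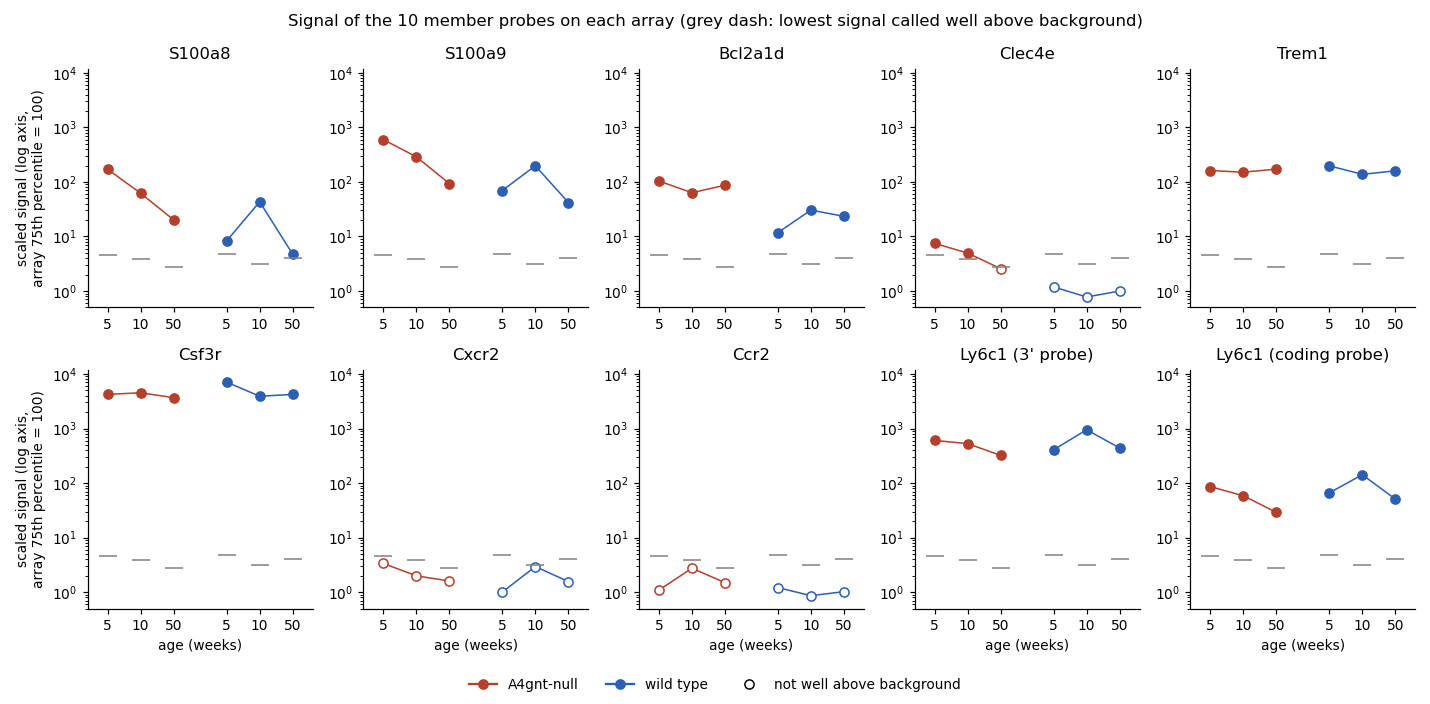
Scaled signal of each member probe (log axis) on the 6 arrays, by age in weeks, with A4gnt-null mice left of wild-type mice; each point is 1 mouse, lines join the ages of a genotype, open points are not well above background, and grey dashes mark each array's lowest signal called well above background. S100a8, S100a9 and Bcl2a1d lie higher in A4gnt-null mucosa at each age, Csf3r and Trem1 are nearly level, and Cxcr2 and Ccr2 stay under the dashes.

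S100A8 and S100A9 are small calcium-binding proteins that pair into calprotectin, which neutrophils release and which binds zinc and manganese away from microbes. Keratinocytes of squamous epithelium also make them when stressed. S100a8 gave 171, 62 and 20.1 in A4gnt-null mucosa of 5, 10 and 50 weeks, against 8.29, 43.3 and 4.73 in wild-type mucosa. The A4gnt-null array was the higher of the pair at every age, but the A4gnt-null value of 50 weeks lay under the wild-type value of 10 weeks, so the genotypes overlapped. The ratio was 20.7-fold at 5 weeks, 1.43-fold at 10 weeks and 4.24-fold at 50 weeks, each 1 mouse against 1 mouse. With normexp background correction, whose offset of 50 units shrinks ratios of dim signals, the ratios were 6.82-fold, 1.26-fold and 1.67-fold. Over the 3 ages the difference was 2.32 ± 0.78 on the log2 scale (SE, 95% interval 0.21 to 4.44), with an adjusted p of 0.195 by limma. It was 1.28 with normexp. Leaving out the 5-week mice gave 1.30, and leaving out the 10-week mice gave 3.23.

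S100a9 behaved in the same way at a brighter probe. It gave 600, 289 and 93.4 in A4gnt-null mucosa, against 69.7, 198 and 42 in wild-type mucosa. As for S100a8, the 5-week A4gnt-null array was the brightest and the 50-week wild-type array the dimmest, and the genotypes overlapped at the wild-type array of 10 weeks. The log2 differences were 3.11 at 5 weeks, 0.54 at 10 weeks and 1.15 at 50 weeks, and their mean was 1.60 ± 0.54 (SE, 95% interval 0.12 to 3.08, limma adjusted p = 0.197). Without the 5-week pair the mean was 0.85. Over the 6 arrays, the log2 values of S100a9 and S100a8 correlated with Pearson r = 0.992 and Spearman rho = 1 (exact permutation p = 0.00139 and 0.00278, Benjamini-Hochberg adjusted over 6 relations to 0.00834 and 0.0167), and r was 0.971 without the 5-week A4gnt-null and 50-week wild-type arrays.

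In both genotypes the S100 signals were lowest at 50 weeks. Averaged over genotypes, the difference between 50 and 10 weeks was -2.41 ± 0.95 for S100a8 and -1.94 ± 0.67 for S100a9 on the log2 scale (SE), with a limma adjusted p of 0.712 for both. Against 5 weeks the differences at 50 weeks were -1.95 ± 0.95 and -1.71 ± 0.67 (limma adjusted p = 0.352 and 0.284). Among all tested probes, 0.00904% passed at an adjusted p of 0.05 between 50 and 5 weeks and 0% between 50 and 10 weeks. A genotype effect that changes with the logarithm of age was tested as well, and S100a8 had an interaction of -0.45 ± 0.60 per doubling of age (SE, limma adjusted p = 1, 0% of all probes called). None of the 7 member probes was called in any of these age tests.

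The probes sit 22.8 kb apart in the S100 gene cluster of chromosome 3, on opposite strands (mm9, the build of the array design: S100a8 at chr3:90473778-90473837, plus strand; S100a9 at chr3:90496573-90496632, minus strand). The S100a8 probe is shown because it is the member with the largest difference; it lies in coding sequence, and no 20 bases of it were found in a probe of another gene.
S100a8 probe: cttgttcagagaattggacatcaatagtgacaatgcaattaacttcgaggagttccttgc

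Because the pair moved together, the 150 bases before each start site are shown as well, from RefSeq on GRCm38.p6. Capitals mark letters that match a TATA box (TATAAA), a C/EBP-type motif (TTNNGNAA), an AP-1 motif (TGANTCA) or the ETS core that PU.1 binds (GAGGAA), searched on both strands, with touching matches merged.
S100a8 promoter, chr3:90668921-90669070, plus strand: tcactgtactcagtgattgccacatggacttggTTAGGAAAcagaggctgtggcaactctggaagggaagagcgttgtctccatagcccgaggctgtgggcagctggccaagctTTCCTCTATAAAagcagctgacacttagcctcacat
S100a9 promoter, chr3:90695722-90695871, minus strand: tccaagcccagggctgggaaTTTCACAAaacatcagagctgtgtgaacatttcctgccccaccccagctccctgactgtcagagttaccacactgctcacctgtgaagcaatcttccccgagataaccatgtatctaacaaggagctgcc
Both windows held the C/EBP-type letters, 117 bases before the start of S100a8 and, on the opposite strand, 130 bases before the start of S100a9. The S100a8 window alone held TATAAA, 30 bases before the start, and the GAGGAA core on the opposite strand. These letters are common: of 32851 mouse promoters, 22.7% held TTNNGNAA in the same window, 14.5% GAGGAA, 7.57% TATAAA and 4.24% TGANTCA.

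Bcl2a1 proteins, also called A1, keep activated neutrophils and other myeloid cells from undergoing apoptosis. Bcl2a1d gave 104, 63.5 and 87.1 in A4gnt-null mucosa of 5, 10 and 50 weeks, against 11.8, 30.5 and 23.4 in wild-type mucosa. It was the only one of the 7 tested probes whose genotypes did not overlap, and among all tested probes 13.8% had all A4gnt-null arrays above all wild-type arrays and 9.59% all below. The log2 differences were 3.15, 1.06 and 1.90 at 5, 10 and 50 weeks, with a mean of 2.04 ± 0.43 (SE, 95% interval 0.86 to 3.21, limma adjusted p = 0.147). The mean was 1.29 with normexp. Unlike the S100 pair it was not lower at 50 weeks: the age difference between 50 and 5 weeks was 0.36 ± 0.53 on the log2 scale (SE, limma adjusted p = 0.734). Its correlation with S100a9 over the 6 arrays was r = 0.674 and rho = 0.771 (exact permutation p = 0.149 and 0.103, adjusted over 6 relations to 0.179 and 0.124), and r was 0.443 without the 2 arrays farthest from the median of S100a9.

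The array design assigns the Bcl2a1d probe to transcripts of Bcl2a1d, Bcl2a1b and Bcl2a1a, near-identical copies, so its signal cannot be divided among them. It lies at chr9:88618165-88618224 (mm9, minus strand), on the chromosome of A4gnt and 10.9 Mb from the A4gnt probe. Its first 30 bases are shown to mark the copy family that was read.
Bcl2a1d probe, bases 1 to 30: cacttggcatttccatttacaaacatgaaa
The separate probe of Bcl2a1c was well above background on 1 array only. Of the other anti-apoptotic relatives, Bcl2 differed by -0.03 ± 0.15, Bcl2l1 by 0.04 ± 0.15 and the brighter Mcl1 probe by 0.15 ± 0.16 on the log2 scale (SE, limma adjusted p = 0.93, 0.888 and 0.602), while the dimmer Mcl1 probe differed by 0.72.

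**Figure D2:**
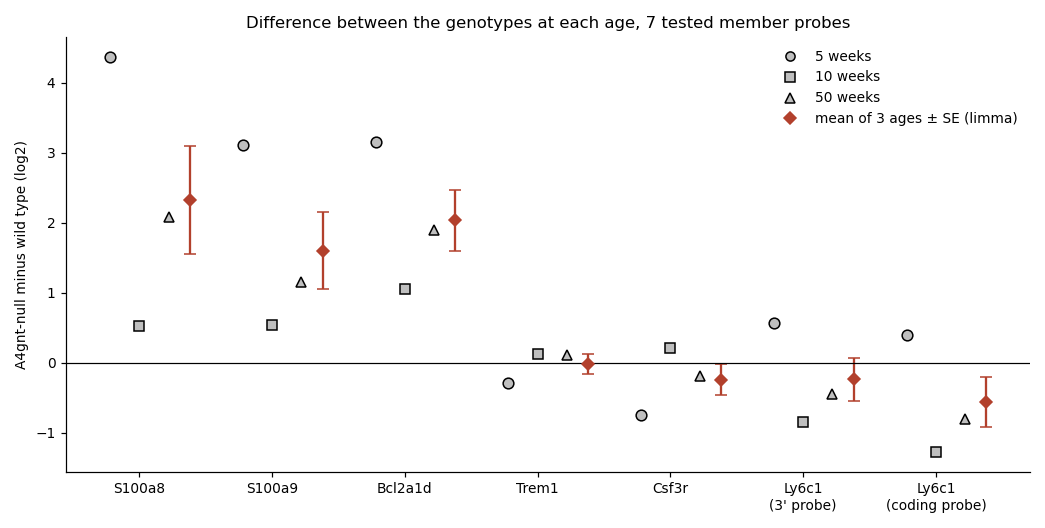
Difference of A4gnt-null minus wild type (log2) for the 7 tested member probes; grey circles, squares and triangles are the single pairs of mice of 5, 10 and 50 weeks, and red diamonds the mean of the 3 ages with its SE from limma. S100a8, S100a9 and Bcl2a1d are above 0 at each age and largest at 5 weeks; the other 4 probes lie on both sides of 0.

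At the level of 1 age, 3 of the 7 tested probes were at least 2-fold higher in A4gnt-null mucosa at 5 weeks, 1 at 10 weeks and 3 at 50 weeks. Of all probes well above background on at least 1 array of that age, 4.56%, 5.4% and 2.35% were 2-fold higher, and 5.45%, 5.93% and 5.15% 2-fold lower. At 5 and 50 weeks the 3 were S100a8, S100a9 and Bcl2a1d, and at 10 weeks it was Bcl2a1d. With normexp the counts were 3 at 5 weeks, 0 at 10 weeks and 1, Bcl2a1d, at 50 weeks. The only 2-fold lower value was that of the Ly6c1 coding probe at 10 weeks.

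CLEC4E, also named Mincle, is a C-type lectin that binds microbial glycolipids and a ribonucleoprotein released by dying cells. Its probe gave 7.49, 4.97 and 2.57 in A4gnt-null mucosa, well above background at 5 and 10 weeks, against 1.19, 0.777 and 1 in wild-type mucosa, never well above background. Against the lowest signal called above background, A4gnt-null mucosa was at least 1.58-fold higher in the 5-week mice and at least 1.56-fold higher in the 10-week mice, and no fold is given for 50 weeks. Clec4d, the neighbouring lectin that pairs with Clec4e, was brighter, with 42.2, 20.3 and 9.81 in A4gnt-null mucosa, against 10.2, 25.2 and 1.76 in wild-type mucosa. Like the S100 pair it was highest in the A4gnt-null mouse of 5 weeks and lowest in the wild-type mouse of 50 weeks, but at 10 weeks the wild-type mouse was the higher, and its difference was 1.40 ± 0.61 on the log2 scale (SE, limma adjusted p = 0.256).

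TREM1 amplifies inflammatory signals in neutrophils and monocytes through the adapter TYROBP. The Trem1 probe gave 162, 151 and 172 in A4gnt-null mucosa, against 198, 138 and 160 in wild-type mucosa, and the genotypes overlapped. The mean difference was -0.02 ± 0.15 on the log2 scale (SE, limma adjusted p = 0.945). CSF3R is the receptor for granulocyte colony-stimulating factor, which drives neutrophil production in the marrow. The Csf3r probe gave 4230, 4520 and 3680 in A4gnt-null mucosa, against 7100, 3910 and 4220 in wild-type mucosa. Only the wild-type array of 5 weeks stood apart, and the mean difference was -0.24 ± 0.22 (log2, SE, limma adjusted p = 0.537).

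Both of these probes hold bases that occur in probes of other genes, which bears on what they measured. The Csf3r probe (chr4:125721478-125721537, mm9, plus strand) was at the 97.2 percentile of mean signal over all probes, and 3 probes of other genes share at least 20 bases with it, 2 of them on the same strand. The Trem1 probe (chr17:48385849-48385908, mm9, plus strand) holds 12 repeats of TTG in a row, a run of 36 bases, and 8 probes of other genes share at least 20 bases with it, 4 of them on the same strand. The stretches are printed with the shared 20 bases of Csf3r and the repeat of Trem1 in capitals.
Csf3r probe, bases 31 to 60: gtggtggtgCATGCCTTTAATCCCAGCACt
Trem1 probe, bases 12 to 41: cctgtgTTGTTGTTGTTGTTGTTGTTGTTG

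The probes that share these bases on the same strand had similar profiles over the arrays. Gm13241, which shares the Csf3r stretch, gave 4030, 4520 and 4070 in A4gnt-null mucosa, against 8050, 4740 and 4810 in wild-type mucosa. LOC631924, which shares it too, gave 530, 564 and 481 in A4gnt-null mucosa, against 952, 547 and 515 in wild-type mucosa. At 5 weeks the log2 difference was -0.75 for Csf3r, -0.997 for Gm13241 and -0.84 for LOC631924. For the TTG repeat, the 5-week difference was -0.29 for Trem1 and between -0.43 and -0.39 for the same-strand probes of Fubp3, Gm4146, Msl1 and E430010N07Rik. The opposite-strand probe that shares the Csf3r stretch, Nxnl1, differed by -0.20 at 5 weeks. Opposite-strand probes that share the Trem1 repeat differed by -0.42 (Gm3384), -0.39 and 0.36 (Brsk1) and -0.09 (Gm10039) at 5 weeks. Some of these were thus as low as the same-strand probes and others were not. No probe without the shared bases was present for either gene, so how much of the 2 signals came from Csf3r and Trem1 RNA was not tested.

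**Figure D3:**
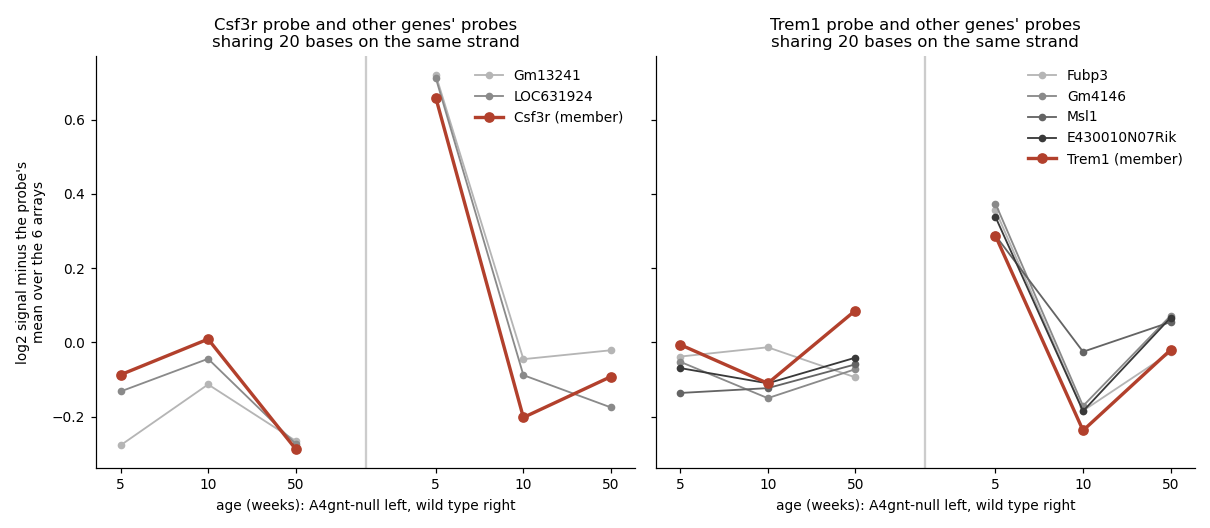
Log2 signal of the Csf3r probe (left panel) and the Trem1 probe (right panel), in red, and of other genes' probes that share 20 bases with them on the same strand, in grey, each relative to its own mean over the 6 arrays; within a panel the A4gnt-null arrays of 5, 10 and 50 weeks are left of the wild-type ones. Member and sharing probes have similar profiles, with the highest value of each on the wild-type array of 5 weeks.

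CXCR2 guides neutrophils along gradients of CXC chemokines, and CCR2 brings Ly6C-high monocytes out of the marrow toward CCL2. Neither probe was well above background on any array. Cxcr2 gave 3.36, 1.99 and 1.6 in A4gnt-null mucosa, against 1, 2.94 and 1.56 in wild-type mucosa. Ccr2 gave 1.09, 2.74 and 1.49 in A4gnt-null mucosa, against 1.21, 0.861 and 1.02 in wild-type mucosa. These values have only an upper bound, so no fold change is given, and a difference was not detectable at this signal.

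The ligands of the same receptors were measured better than the receptors. Of 10 ligand genes on a list, 5 could be tested, and the rest were too dim for a test. All A4gnt-null arrays lay above all wild-type arrays for 4 of the 5, as for 13.8% of all tested probes. Cxcl5 and Ccl7 passed the signal filter through A4gnt-null arrays alone, which nearly fixed this order for them in advance. Cxcl1 and Ccl2 passed it with 1 wild-type array each, so the count of 4 is not separate evidence of a difference. Cxcl1, a CXCR2 ligand, gave 31, 46.4 and 51.4 in A4gnt-null mucosa, against 1.17, 10.7 and 1.51 in wild-type mucosa, where it was well above background on 1 array. Cxcl5, another CXCR2 ligand, was at least 6.32-fold higher, and Ccl7, a CCR2 ligand, at least 2.16-fold higher, since neither was well above background in wild-type mice (limma adjusted p = 0.131 and 0.0938). Ccl2, the main CCR2 ligand, gave 15.9, 34.4 and 24.6 in A4gnt-null mucosa, against 1.52, 9.52 and 2.93 in wild-type mucosa, where it was well above background on 1 array. The fitted log2 difference was 2.77 ± 0.34 (SE, limma adjusted p = 0.116) and takes the other wild-type signals as read. Csf3, the ligand of CSF3R, was not well above background on any array, and Cxcl2 was so on 1. Cxcl1, Cxcl5 and Ccl2 did not have the profile of the S100 genes. In A4gnt-null mucosa they were lower at 5 weeks than at 10 or 50 weeks, while S100a8 and S100a9 were highest at 5 weeks. Ccl7 gave 6.73, 13.8 and 6.59 there, nearly equal at 5 and 50 weeks.

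Ly6C marks inflammatory monocytes in mouse blood, and the Ly6c1 gene is also active in endothelium. The 2 Ly6c1 probes lie 2.29 kb apart on chromosome 15. The probe near the 3' end (chr15:74875495-74875554, mm9, minus strand) gave 605, 528 and 322 in A4gnt-null mucosa, against 407, 947 and 439 in wild-type mucosa. The coding probe (chr15:74877785-74877844, mm9, minus strand) gave 86.3, 58.5 and 29 in A4gnt-null mucosa, against 65.9, 142 and 50.8 in wild-type mucosa. Both were higher in A4gnt-null mucosa at 5 weeks and lower at 10 and 50 weeks, with the maximum on the wild-type array of 10 weeks. The mean log2 differences were -0.24 ± 0.31 and -0.57 ± 0.36 (SE, limma adjusted p = 0.664 and 0.39). The coding probe is also assigned to Ly6c2, the copy that monocytes use, and no probe of Ly6c2 alone was present. It is shown because it reads both copies.
Ly6c1 coding probe: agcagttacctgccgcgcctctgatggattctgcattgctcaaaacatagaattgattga
The 2 probes correlated with r = 0.94 and rho = 0.829 over the 6 arrays (exact permutation p = 0.0125 and 0.0583, adjusted over 6 relations to 0.0375 and 0.117), and r was 0.634 without the 2 arrays farthest from the median.

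Endothelial genes were therefore set beside Ly6c1. Of 14 tested genes on a list of 16 endothelial markers, 9 had their highest value on the wild-type array of 10 weeks, as both Ly6c1 probes had. The share of all tested probes with their maximum there was not computed, so the count has no background to judge it by. The brighter Kdr probe, the brightest of the list, peaked elsewhere, with 2930, 1640 and 1540 in A4gnt-null mucosa, against 2840, 2070 and 2330 in wild-type mucosa. The Kdr probes disagreed, since the dimmer one had its maximum on the wild-type array of 10 weeks. It gave 29.8, 29.8 and 15.8 in A4gnt-null mucosa, against 23.5, 30.9 and 18.8 in wild-type mucosa. Pecam1 and Cldn5 also had their maximum on other arrays. Robo4, an endothelial guidance receptor, gave 38.8, 41 and 26.7 in A4gnt-null mucosa, against 31.9, 79.1 and 22.9 in wild-type mucosa. Flt1, a VEGF receptor, gave 45.5, 72.8 and 52.3 in A4gnt-null mucosa, against 45.2, 132 and 60.5 in wild-type mucosa. The summed signal of the list was 2296 to 3892 in A4gnt-null mucosa, against 3125 to 3715 in wild-type mucosa. Most of the sum on each array came from the brighter Kdr probe, so the sum does not describe the list. The median difference of the list was 0.08 on the log2 scale with 0 genes called. Vwf differed by 1.04, Tie1 by 0.41, Plvap by -0.39 and Esam by -0.47 on the log2 scale. The part of endothelial RNA in the Ly6c1 signal was not tested.

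Beside the members, a list of 28 neutrophil genes that does not hold them was examined. Of these, 27 were on the array, 14 were tested, and 10 were well above background on 0 arrays, among them Mpo, Prtn3, Ctsg, Ngp and Mmp9, which encode granule proteins, and Padi4. Other granule protein genes were detected. Elane, well above background on all 6 arrays, gave 247, 193 and 174 in A4gnt-null mucosa, against 246, 255 and 236 in wild-type mucosa, and Camp was so on 4 arrays. Of the 14, 4 had all A4gnt-null arrays above all wild-type arrays, 2 had them all below (13.8% and 9.59% of all tested probes), 0 passed the adjusted threshold, and the median difference was 0.56 on the log2 scale. Lcn2, an iron-withholding protein that stressed epithelium makes too, gave 64.2, 181 and 181 in A4gnt-null mucosa, against 23.7, 43.3 and 20.8 in wild-type mucosa (2.21 ± 0.36, log2, SE, limma adjusted p = 0.133). Pglyrp1, a peptidoglycan-binding protein, gave 664, 1570 and 1980 in A4gnt-null mucosa, against 271, 249 and 521 in wild-type mucosa (1.96 ± 0.29, log2, SE, limma adjusted p = 0.128). Cxcr1, a chemokine receptor, went the other way with 16.9, 8.51 and 11.8 in A4gnt-null mucosa, against 34.5, 24 and 43.5 in wild-type mucosa (-1.47 ± 0.20, log2, SE, limma adjusted p = 0.122). Ltf, lactoferrin, differed by 2.29 ± 0.94 (log2, SE, limma adjusted p = 0.239) and reached 703 in the A4gnt-null mouse of 50 weeks alone.

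Ly6g, the surface antigen by which mouse neutrophils are defined, was near background, with 4.52, 4.74 and 3.43 in A4gnt-null mucosa, well above background on 2 arrays, against 0.995, 8.36 and 2.88 in wild-type mucosa, well above background on 1. Retnlg, a resistin-like gene of marrow and blood neutrophils, gave 45, 32.1 and 11.1 in A4gnt-null mucosa, against 9.56, 17.5 and 4.81 in wild-type mucosa. Its profile followed S100a9 (r = 0.986 and rho = 1 over the 6 arrays, a description without a test, since the gene was singled out after its values were seen), and its log2 difference was 1.44 ± 0.30 (SE, limma adjusted p = 0.147). Thus the neutrophil list did not move as 1 group: Retnlg had the order of the S100 genes, while Lcn2, Pglyrp1 and Ltf were lowest at 5 weeks among A4gnt-null arrays.

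Red-cell genes were, like the S100 pair, highest in the A4gnt-null mouse of 5 weeks and had their wild-type maximum at 10 weeks. Hba-a1, an alpha globin, gave 6520, 1400 and 376 in A4gnt-null mucosa, against 1200, 1690 and 482 in wild-type mucosa. Alas2, which makes heme in red-cell precursors, gave 135, 35.4 and 6.98 in A4gnt-null mucosa, against 20.7, 33.1 and 10.3 in wild-type mucosa. Of 5 blood genes on the list, 4 were on the array, 2 were tested and 1 (Epb42) was never well above background. The summed signal was 386.8 to 6673 in A4gnt-null mucosa, against 495.7 to 1729 in wild-type mucosa, and most of it came from Hba-a1. At 50 weeks both tested genes were lower in the A4gnt-null than in the wild-type mouse, where S100a8 and S100a9 were higher. S100a9 and Alas2 correlated with r = 0.875 (rho = 0.829, exact permutation p = 0.0236 and 0.0583, adjusted over 6 relations to 0.0472 and 0.117), S100a9 and Hba-a1 with r = 0.849 (rho = 0.771, exact permutation p = 0.0403 and 0.103, adjusted to 0.0604 and 0.124). Without the 2 arrays farthest from the median of S100a9, r was 0.67 and 0.52. The part of blood in the S100 signals was not tested.

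Some squamous genes, which mark epithelium such as that of the forestomach, were high in the older wild-type mice, those of 10 and 50 weeks, and others were not. Of 9 tested, 5 had their highest value in the wild-type mouse of 50 weeks, 1 in that of 10 weeks and 3 elsewhere. Krt5, a basal keratin, gave 7.09, 6.92 and 10.2 in A4gnt-null mucosa, against 7.6, 140 and 227 in wild-type mucosa. Lor, a protein of the cornified layer, gave 19.5, 13.7 and 9.11 in A4gnt-null mucosa, against 9.3, 369 and 1010 in wild-type mucosa. Of 17 such genes, 2 (Dsg3 and Dsc3) were never well above background, with 0 called and a median difference of -0.30 on the log2 scale. The summed signal was 3897 to 6318 in A4gnt-null mucosa, against 1876 to 4890 in wild-type mucosa. Most of the A4gnt-null sum came from Sprr1a alone, so the sum does not describe the list. Sprr1a gave 5290, 3030 and 3330 in A4gnt-null mucosa, against 781, 3120 and 1950 in wild-type mucosa. Krt6b was at least 13.3-fold lower in A4gnt-null mucosa, where it was well above background on 0 arrays, while Ivl, involucrin, gave 67.9, 41.1 and 26.7 in A4gnt-null mucosa, against 1.6, 15.2 and 6.56 in wild-type mucosa. S100a8 and S100a9 were at their highest wild-type value at 10 weeks but at their lowest at 50 weeks, where Krt5 and Lor were highest. Ivl and Sprr1a, like the S100 pair, had their maximum in the A4gnt-null mouse of 5 weeks. The correlation of S100a9 with Krt5 was r = -0.449 and rho = -0.714 (exact permutation p = 0.336 and 0.136, adjusted over 6 relations to 0.336 and 0.136), and r was 0.301 without the 2 arrays farthest from the median of S100a9. The part of squamous epithelium in the S100 signals was not tested.

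**Figure D4:**
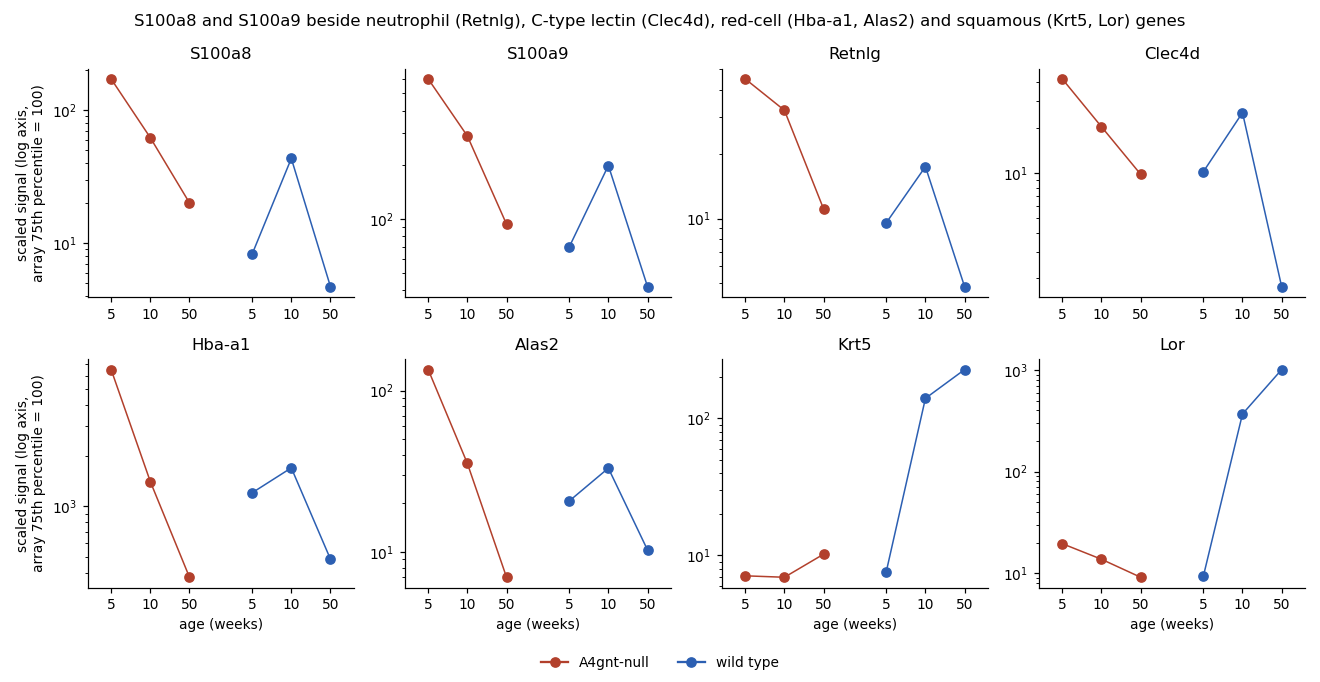
Scaled signal (log axis, each panel with its own range) of S100a8 and S100a9 beside Retnlg, Clec4d, Hba-a1, Alas2, Krt5 and Lor, by age in weeks, A4gnt-null mice in red on the left and wild-type mice in blue on the right; each point is 1 mouse, and the last wild-type point of Clec4d (1.76) is under the level called well above background. Retnlg, Clec4d and the red-cell genes share with S100a8 and S100a9 the maximum in the A4gnt-null mouse of 5 weeks and a wild-type maximum at 10 weeks, and Krt5 and Lor do not.

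Of 20 monocyte genes, 19 were on the array, 17 were tested, 0 were called, and 2 had all A4gnt-null arrays above and 1 all below the wild-type arrays (13.8% and 9.59% of all tested probes), with a median difference of 0.31 on the log2 scale. The gene below was Vcan by its brightest probe, at -0.25, while a dimmer tested Vcan probe differed by 0.98. Cd14, the endotoxin co-receptor, gave 84.9, 75.9 and 97.1 in A4gnt-null mucosa, against 40, 56.8 and 28 in wild-type mucosa (1.10 ± 0.30, log2, SE, limma adjusted p = 0.167). Fcgr3, a low-affinity IgG receptor that was well above background on 1 wild-type array only, differed by 1.38 ± 0.44, Cx3cr1, the fractalkine receptor, by 0.62 ± 0.20, and Plac8 by 0.61 ± 0.17 (log2, SE, limma adjusted p = 0.186, 0.19 and 0.172). Csf1r, the receptor of the monocyte growth factor, differed by 0.17 ± 0.14 (log2, SE, limma adjusted p = 0.495). Of 8 tested macrophage genes the median difference was 0.45, with Mpeg1 at 0.96, Aif1 at 0.89, Mrc1 at 0.54 and C1qa at 0.54. C1qc, Adgre1 and C1qb were at 0.36, 0.17 and 0.16, and Mertk was lower at -0.22. Of 9 tested genes of all leukocytes the median was 0.14, with Cd52 at 0.87, Coro1a at 0.79 and Laptm5 at 0.38. Other leukocyte genes were level or lower, with Vav1 at 0.14, Cd48 at 0, Lcp1 at -0.04, Rac2 at -0.10 and Arhgdib at -0.17. In either list 0 were called. Ptprc gave 17.2, 3.6 and 4.07 in A4gnt-null mucosa, against 1.26, 4.02 and 4.89 in wild-type mucosa, so that its mean of 1.12 on the log2 scale came with lower A4gnt-null values at 10 and 50 weeks.

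A list of 22 adapters, signalling genes and other innate receptors was set beside Trem1 and Clec4e. Of these, 14 were tested, 0 were called and 6 had all A4gnt-null arrays above all wild-type arrays, against 13.8% of all tested probes. The receptor Clec7a, 1 of the 6, passed the signal filter through A4gnt-null arrays alone. Among the signalling genes, Syk, Bcl10 and Malt1 differed by 0.16, 0.28 and 0.34 on the log2 scale, with overlapping genotypes. Myd88 differed by 0.20 without overlap, and Card9 was not well above background on any array. Tyrobp gave 81.1, 58.9 and 54.9 in A4gnt-null mucosa, against 49.3, 51 and 23 in wild-type mucosa, and Fcer1g, the adapter of Clec4e, gave 84.8, 83.4 and 75.3 in A4gnt-null mucosa, against 51.4, 70.3 and 42.1 in wild-type mucosa. Their differences were 0.73 ± 0.24 and 0.60 ± 0.17 on the log2 scale (SE, limma adjusted p = 0.189 and 0.172). Clec7a, the beta-glucan receptor, was at least 6.26-fold higher, being well above background on all 3 A4gnt-null arrays and on 0 wild-type arrays (limma adjusted p = 0.0938). Il1b gave 49.1, 43.6 and 64 in A4gnt-null mucosa, against 6.19, 20.4 and 3.83 in wild-type mucosa, and Ptgs2, the inducible cyclooxygenase, gave 32.1, 24.6 and 32.9 in A4gnt-null mucosa, against 1.21, 5.33 and 2.2 in wild-type mucosa (limma adjusted p = 0.152 and 0.124). In wild-type mucosa Il1b was well above background on 2 arrays and Ptgs2 on 1. Tlr4, a receptor for extracellular S100A8 and S100A9, was level at 0.01 ± 0.12 (log2, SE, limma adjusted p = 0.961), and Ager, another such receptor, was not well above background on any array.

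Other S100 genes, most of them epithelial, were measured as well. On a list of 16 S100 and Bcl2 relatives, 14 were on the array, 13 were tested, 0 were called, and 9 had all A4gnt-null arrays above and 1 all below the wild-type arrays (13.8% and 9.59% of all tested probes). S100a4, an S100 of motile cells, gave 152, 196 and 152 in A4gnt-null mucosa, against 43.4, 44 and 55.5 in wild-type mucosa (1.80 ± 0.18, log2, SE, limma adjusted p = 0.1). S100a5 was the one lower, with 179, 133 and 77 in A4gnt-null mucosa, against 276, 630 and 213 in wild-type mucosa (-1.45 ± 0.34, log2, SE, limma adjusted p = 0.157). S100a10 and S100a16 differed by 1.18 ± 0.29 and 0.89 ± 0.17 (log2, SE, limma adjusted p = 0.159 and 0.141). Of 6 tested mast cell genes 0 were called, and the median difference was 0.74 on the log2 scale, with Mcpt2 at 1.89, Mcpt4 at 1.69, Mcpt1 at 1.64 and Kit at -0.84. Of 5 tested T and B cell genes 0 were called, with a median of 0.28 and Cd38 at 0.83, Jchain at 0.78, Cd4 at -0.51 and Cd79b at 0.28. Of 10 tested gastric gland genes 0 were called, with a median of -0.21 and Atp4a at -1.30, Cblif at -0.97, Muc6 at 0.95 and Tff2 at 0.86.

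**Figure D5:**
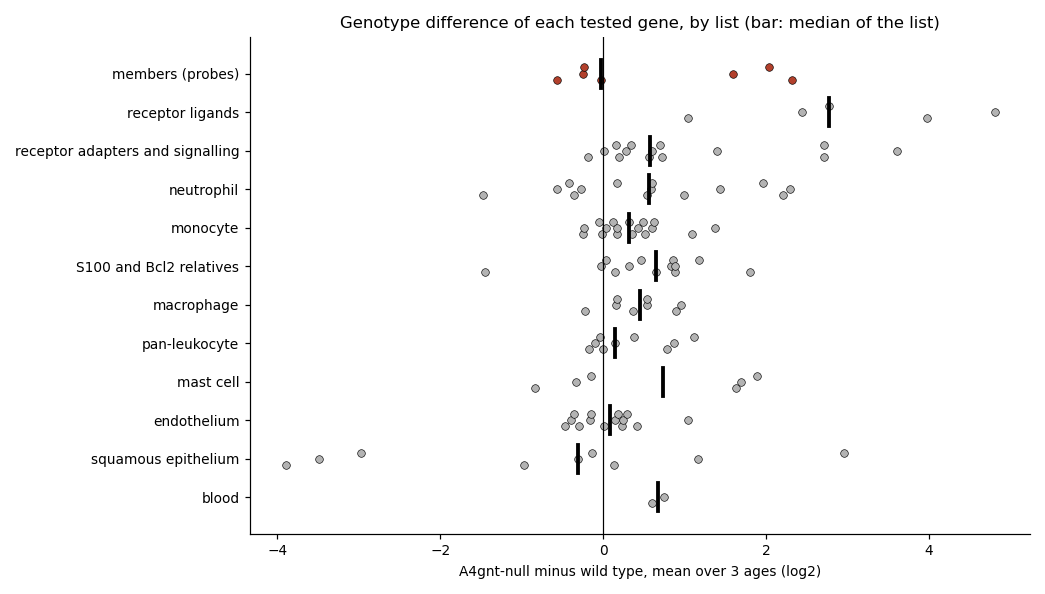
Mean difference of A4gnt-null minus wild type over the 3 ages (log2) for each tested gene, by list, with the 7 tested member probes in red on top; bars mark the median of each row. The median is -0.02 for the member probes, which is the value of the Trem1 probe. Medians of the lists are 2.77 for the receptor ligands, 0.56 for the neutrophil list and 0.08 for the endothelial list. No single gene shown passed an adjusted p of 0.05. The receptor ligand row holds Cxcl5 and Ccl7, which passed the signal filter through A4gnt-null arrays alone. Cxcl1 and Ccl2 passed it with 1 wild-type array each, so the median of that row is not separate evidence of a difference. Clec7a also passed through A4gnt-null arrays alone, and Krt6b through wild-type arrays alone.

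Genes most like the members in profile were sought among 7422 probes well above background on at least 3 arrays whose log2 values spanned at least 1. The highest Pearson correlations over the 6 arrays with the mean of S100a8 and S100a9 were those of Ltbp1 (0.98), a TGF-beta binding protein, Jdp2 (0.98), an AP-1 family repressor, Slc11a1 (0.98), a metal transporter of phagocyte vacuoles, Arhgap25 (0.98), a GTPase regulator, and Spem2 (0.98), and 106 probes had r above 0.9. Slc11a1 gave 11.5, 9.34 and 5.5 in A4gnt-null mucosa, against 3.72, 7.48 and 3.73 in wild-type mucosa. For Bcl2a1d, a search added after its values were seen gave the dimmer Mcl1 probe, Cd9, Areg, Gch1 and LOC100044438, each with r of 0.99, and 206 probes had r above 0.9. Areg, an EGF-family ligand, gave 2190, 1170 and 1630 in A4gnt-null mucosa, against 337, 769 and 662 in wild-type mucosa. The Mcl1 probes disagreed: the dimmer one gave 299, 259 and 278 in A4gnt-null mucosa, against 131, 202 and 183 in wild-type mucosa, while the brighter one differed by 0.15 on the log2 scale. All these correlations share the same 6 arrays and are given as a description.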

How the data were processed

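Per the file headers, spot fluorescence intensity was read by Agilent Feature Extraction 10.7.1.1 and background-corrected into a processed signal; RNA was column-purified and labelled with Cy3, per the labels' protocols. A log2 table deposited by the authors equals the log2 processed signal plus a constant of each array (-8.535 to -7.882) within 0.001 for 100% of probes; why the constants differ from minus the log2 75th percentile is not given in the sources used here. Column medians of that table were -3.886 to -3.557, and it served as an alternative only.

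Outlier-flagged spots, 98 to 144 on an array, were removed, 0 were saturated, replicate spots were averaged, and 30 probes with every spot flagged on an array were left out. Log2 signals minus each array's 75th percentile went into limma 3.58.1 (R 4.3.3) with genotype and age as terms (2 residual and 2.22 prior degrees of freedom), for 22136 of 39399 probes well above background on at least 3 of 6 arrays. P-values were adjusted by Benjamini-Hochberg over all of them, with a threshold of 0.05. Nothing but age pairs the arrays, and no mice share both genotype and age, so the spread between like mice was not estimated. Besides the prior, the limma p-values rest on how far the genotype differences of the ages disagree. A change of the difference with age and variation between mice or arrays cannot be told apart in that spread. The number of arrays limits the precision. Probes were named from RefSeq by accession (26044), symbol (3194) or synonym (939); 9222 went by the design's own name. For a gene of a list, the brightest probe was used.

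All member probes are named, and of each list the 4 largest differences, genes a member's role points to, and the 5 genes most like the S100 pair; the like search for Ccr2 was not made because Ccr2 was never above background. Robo4, Flt1, Retnlg and other list genes outside this rule were named after their values were seen. The members and lists were chosen with earlier results of these data known. A gene of the blood list is not reported here. Simulated data served to test the fit. Alternatives were quantile normalization, median scaling, normexp with an offset of 50, the deposited table, other filters, no age term, a variance trend and leaving out each age.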

Additional observations from a re-analysis of the deposited data

Results flagged for a closer look

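The following members had an A4gnt-null array above its wild-type array at 1 age and below it at another. These are differences between single mice, and the change of direction with age was not tested beyond the interaction with the logarithm of age, which was not called for any of them. The Csf3r difference at 10 weeks exceeded that at 5 weeks by 0.96 on the log2 scale, and the Trem1 difference by 0.42. The Ly6c1 difference at 5 weeks exceeded that at 10 weeks by 1.41 for the 3' probe and by 1.67 for the coding probe, on the log2 scale. The wild-type array of 10 weeks was the highest for both Ly6c1 probes and for 9 of 14 tested endothelial genes, a count without the share of all probes beside it.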

How the results depend on the processing

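S100a8, S100a9 and Bcl2a1d kept a positive genotype difference under all 11 alternatives, with ranges of 1.28 to 3.23, 0.85 to 2.13 and 1.29 to 2.52 on the log2 scale, and none passed an adjusted p of 0.05 under any of them (lowest adjusted p 0.133, 0.133 and 0.0876, limma). The coding probe of Ly6c1 kept a negative one (-1.04 to -0.21). The Trem1 difference was 0.109 with median scaling, under which the median of all probes shifted to 0.134, and -0.093 to 0.116 when 1 age was left out. Leaving out 1 age gave -0.471 to 0.008 for Csf3r, where the positive value was without the 5-week pair, and -0.644 to 0.062 for the 3' probe of Ly6c1, where it was without the 10-week pair. With normexp, whose offset shrinks ratios of dim signals, the S100a8 differences were 2.77 and 0.74 at 5 and 50 weeks, against 4.37 and 2.08, those of S100a9 2.75 and 0.85, against 3.11 and 1.15, and those of Bcl2a1d 1.88, 0.69 and 1.29 at 5, 10 and 50 weeks, against 3.15, 1.06 and 1.90. With quantile normalization Csf3r was more than 2-fold lower at 5 weeks. With median scaling, 21.5% of all probes were higher at an unadjusted p under 0.05, against 12.4%, and the age differences between 50 and 5 weeks of Trem1 and between 50 and 10 weeks of Csf3r were 0.071 and 0.033. All other tested member differences of genotype, age and their interaction kept their sign under every alternative run and stayed uncalled; the causes of the other changes were not tested.

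Over all probes, the genotype test called 1 lower with quantile normalization, 4 higher and 2 lower with normexp, 3 higher and 1 lower with no age term, and 56 higher and 28 lower with a variance trend, against 0 in the fit reported, and no tested member was among them. Between 50 and 5 weeks, 2 probes were called higher; normexp gave 10 higher and 4 lower, the trend 4 higher and 2 lower, and 0 were called higher with no filter or with all 6 arrays above background. At an unadjusted p under 0.05, 3 members were higher under every alternative that used the 6 arrays with age as a term, 1 with no age term, and 2, 3 and 1 without the 5-, 10- and 50-week pairs. The low signals of Cxcr2, Ccr2 and Clec4e limit what can be said of them.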
